A study of Mus musculus with 20 samples.

Results

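Transcripts of 7 transcription factor genes that pattern the limbs, trunk and head (Tbx15, Hoxc9, Hoxd8, Hoxc6, Pitx1, En1 and Six2) were followed in extraocular and leg muscle of mdx and control mice. They were chosen by name, with earlier results of these data known. A probe set, the group of array probes read as 1 value, was a member where the platform annotation gave it exactly 1 of these symbols. That rule found 9 probe sets, 3 of them for Tbx15 and 1 for each other gene, among 10276 probe sets with 1 symbol and 12588 in all. The series compared extraocular muscle (EOM), which moves the eye, with hindlimb muscle in mdx and wild-type control mice, by hybridising total RNA to single-channel Affymetrix arrays. The 4 groups were EOM of mdx mice, EOM of control mice, leg muscle of mdx mice and leg muscle of control mice, with 5 arrays each and every mouse 8 weeks old. mdx mice lack full-length dystrophin because of a nonsense mutation in Dmd and serve as a model of Duchenne muscular dystrophy; the labels name no treatment and no strain. The source of the leg controls is given as gastrocnemius/soleus and that of the leg mdx arrays only as leg muscle, so genotype and choice of leg muscle cannot be told apart. The control and mdx arrays also carry different descriptions, and whether they were made together was not given in the labels. The labels do not say whether the arrays of a group came from separate mice, so the p-values describe only spread between arrays, which may be partly technical.

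Hox genes lie in clusters and are switched on in the order of their place along the chromosome, which gives cells of the trunk and limbs a position along the body axis. Muscles of the limb come from somites and grow among limb mesenchyme, whereas muscles of the eye arise from head mesoderm and lie among connective tissue that comes largely from neural crest, a region anterior to Hox expression. Pitx1 sets hindlimb identity, En1 marks the ventral ectoderm of the limb bud, Tbx15 acts in skeletal and fast-fibre development, and Six2 maintains progenitors of the developing kidney and is also active in head mesenchyme.

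Hoxd8, En1 and Six2 are shown with the sequence just before their transcription start, because they had a promoter window in the RefSeq table used here and were all lower in EOM than in leg muscle in both genotypes. The table is on the mouse build GRCm38.p6, and 3 of the 7 genes were found in it. The 250 bases upstream of the start are printed 5′ to 3′ on the strand of the gene, which is chr2:74704365-74704614 on the plus strand for Hoxd8, chr1:120602237-120602486 on the plus strand for En1 and chr17:85688255-85688504 on the minus strand for Six2. Capitals mark TAAT or its reverse complement ATTA, the core letters that homeodomain proteins such as Hox, Pitx and En factors bind.
Hoxd8: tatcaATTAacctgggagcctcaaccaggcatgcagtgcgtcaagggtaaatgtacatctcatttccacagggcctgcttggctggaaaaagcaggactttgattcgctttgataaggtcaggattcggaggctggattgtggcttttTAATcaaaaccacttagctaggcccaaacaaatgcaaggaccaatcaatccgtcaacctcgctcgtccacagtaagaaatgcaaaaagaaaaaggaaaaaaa
En1: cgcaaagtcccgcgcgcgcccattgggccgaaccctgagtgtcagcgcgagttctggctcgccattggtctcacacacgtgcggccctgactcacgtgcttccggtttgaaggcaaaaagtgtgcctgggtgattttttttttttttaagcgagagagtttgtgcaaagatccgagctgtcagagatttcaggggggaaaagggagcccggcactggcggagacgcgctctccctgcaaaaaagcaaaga
Six2: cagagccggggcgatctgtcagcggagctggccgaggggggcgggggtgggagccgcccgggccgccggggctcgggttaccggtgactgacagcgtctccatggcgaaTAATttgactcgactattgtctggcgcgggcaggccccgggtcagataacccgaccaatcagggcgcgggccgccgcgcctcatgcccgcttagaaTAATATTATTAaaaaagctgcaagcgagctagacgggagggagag
Overlapping matches were counted, also where they shared bases. Hoxd8 held 2 such matches, En1 held 0 and Six2 held 4, while 54.9% of all 32851 windows of this length held at least 1. The longer letters TAATCC or GGATTA, the type bound by Pitx factors, were in none of the 3 windows and in 6.25% of all windows. CCAAT or ATTGG was found once in Hoxd8, 2 times in En1 and once in Six2, against 33.8% of all windows with a match. The E-box letters CANNTG, which read the same on both strands, matched once in Hoxd8, 2 times in En1 and 0 times in Six2, and 66.2% of all windows had a match. TATAAA or TTTATA was in none of the 3 and in 12.4% of windows. GGGCGG or CCGCCC matched 2 times in Six2, 0 times in Hoxd8 and 0 times in En1, and 32.7% of windows held it. GC content was 44.4% for Hoxd8, 56% for En1 and 64.8% for Six2, with a median of 52.4% over all windows. These matches describe letters in a window and carry no measurement of binding.

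Signals below are the authors' intensities after each array was scaled to a 2% trimmed mean of 500; values under 50 were raised to 50 before log2 was taken. A difference is called where limma's Benjamini-Hochberg adjusted p, over 7204 probe sets with a signal of 200 or more on 5 or more arrays, was under 0.05. All 9 member probe sets passed that filter. Hoxc9 reached 200 on 9 arrays, all from leg, Hoxd8 on 9 leg and 4 EOM arrays, and En1 on 9 leg and 2 EOM arrays, so all 3 passed the filter only through leg muscle, in which they were high. Between 47.2% and 52.0% of probe sets reached 200 on each array, and with 5 arrays a group their number sets the precision of each value. Dmd averaged 119 ± 31.7 in EOM mdx and 268 ± 47.4 in EOM control arrays, and 77.5 ± 32.3 in leg mdx and 149 ± 40.2 in leg control arrays (SD, n = 5 each). Between genotypes Dmd was called in leg muscle (log2 difference -0.92, limma adjusted p = 0.0323). It was not called in EOM (log2 difference -1.18, limma adjusted p = 0.233).

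The array labelled leg control 4 stood apart from the other leg controls in the members themselves. On a log2 scale on which 0 is the mean of the EOM controls and 1 the mean of leg controls 1, 2, 3 and 5, it lay at -0.40 for Hoxd8, 0.16 for Hoxc9, 0.36 for En1 and 0.24, 0.04 and -0.37 for the 3 Tbx15 probe sets. These 6 of the 8 probe sets compared lay nearer the EOM control level, while Pitx1 lay at 0.51 and Six2, at 1.46, beyond the other leg controls. The other 4 leg controls lay between 0.51 and 1.85 for these 8 probe sets. Hoxc6 was left out of this scale because its 2 end points differ little. Other genes moved on this array too, and not all toward EOM. The 9 slow-fibre genes summed to 3706 on it, against 37903 to 95282 on the other leg controls. On EOM controls they summed to between 34675 and 47904. The 4 nerve and Schwann cell genes summed to 2769, near the other leg controls (1474 to 2633) and below EOM controls (6411 to 8778). The 5 salivary and lacrimal gland genes summed to 10361, against 359 to 1460 on the other leg controls and 4046 to 5220 on EOM controls. Most of that gland sum was 1 gene, Bpifa2, which read 8892 on leg control 4 and 78.1 to 828 on the others. The mean correlation of leg control 4 over all tested probe sets was still higher with its own group (0.9058) than with EOM controls (0.8771), EOM mdx (0.8659) or leg mdx arrays (0.8579). Differences against leg controls are therefore given with and without this array for the members, the other position genes named and Itga7. Dmd and the counts of genes called in the cell type and muscle isoform lists are given with all arrays only. Why leg control 4 stood apart was not tested.

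**Figure D1:**
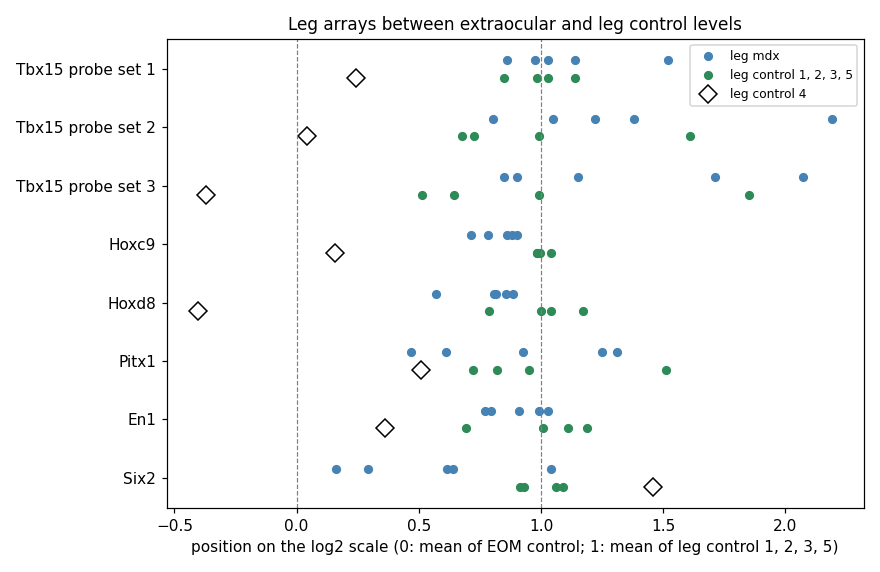
Position of each leg array on a log2 scale from the mean of the EOM controls (0) to the mean of leg controls 1, 2, 3 and 5 (1), for 8 member probe sets. Circles are leg mdx and leg control arrays and the open diamond is leg control 4, which lies nearer 0 than 1 for 6 of the 8 probe sets and at 1.46 for Six2.

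Between the muscles, 6 of the 7 genes were called in control mice and 6 of the 7 in mdx mice, with Tbx15 read by its brightest probe set. The genes were chosen with earlier results of these data known, so these counts are no test against the shares of all probe sets. In addition, Hoxc9, Hoxd8 and En1 passed the filter only through leg muscle, in which they were high. Hoxc9, Hoxd8, En1 and Six2 were lower in EOM, Tbx15 and Pitx1 were higher, and Hoxc6 was not called, in each genotype. Thus 4 genes were lower, beside 8.83% of all probe sets in mdx and 7.41% in control mice, and 2 were higher, beside 9.24% in mdx and 10.3% in control mice. Over all 7204 probe sets, 18.1% were called between EOM mdx and leg mdx arrays and 17.7% between EOM control and leg control arrays. The median log2 difference over the 7 genes was -1.06 in mdx and -1.57 in control mice, beside a median over all probe sets of 0.00078 in mdx and 0.02 in control mice. The groups did not overlap for 5 of the 7 genes in mdx mice, where 14.4% of all probe sets did not overlap, and for 4 of the 7 in control mice, where 13.5% did not. Without leg control 4 the count stayed at 6 in control mice, with 17.2% of 7163 probe sets called, and the groups did not overlap for 6 of the 7 genes, against 16.7% of probe sets. The 2 muscle comparisons share no arrays, but each shares arrays with a comparison between genotypes. All groups also share 1 estimate of spread, so leg control 4 enters the p-values in mdx mice. Without it the count in mdx mice was again 6. The limma adjusted p there fell from 0.00108 to 2.19e-05 for Hoxc9 and from 0.000347 to 4.68e-07 for Hoxd8, and rose from 0.22 to 0.231 for Hoxc6. In whole muscle, fewer cells of a type and less RNA per cell cannot be told apart.

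**Figure D2:**
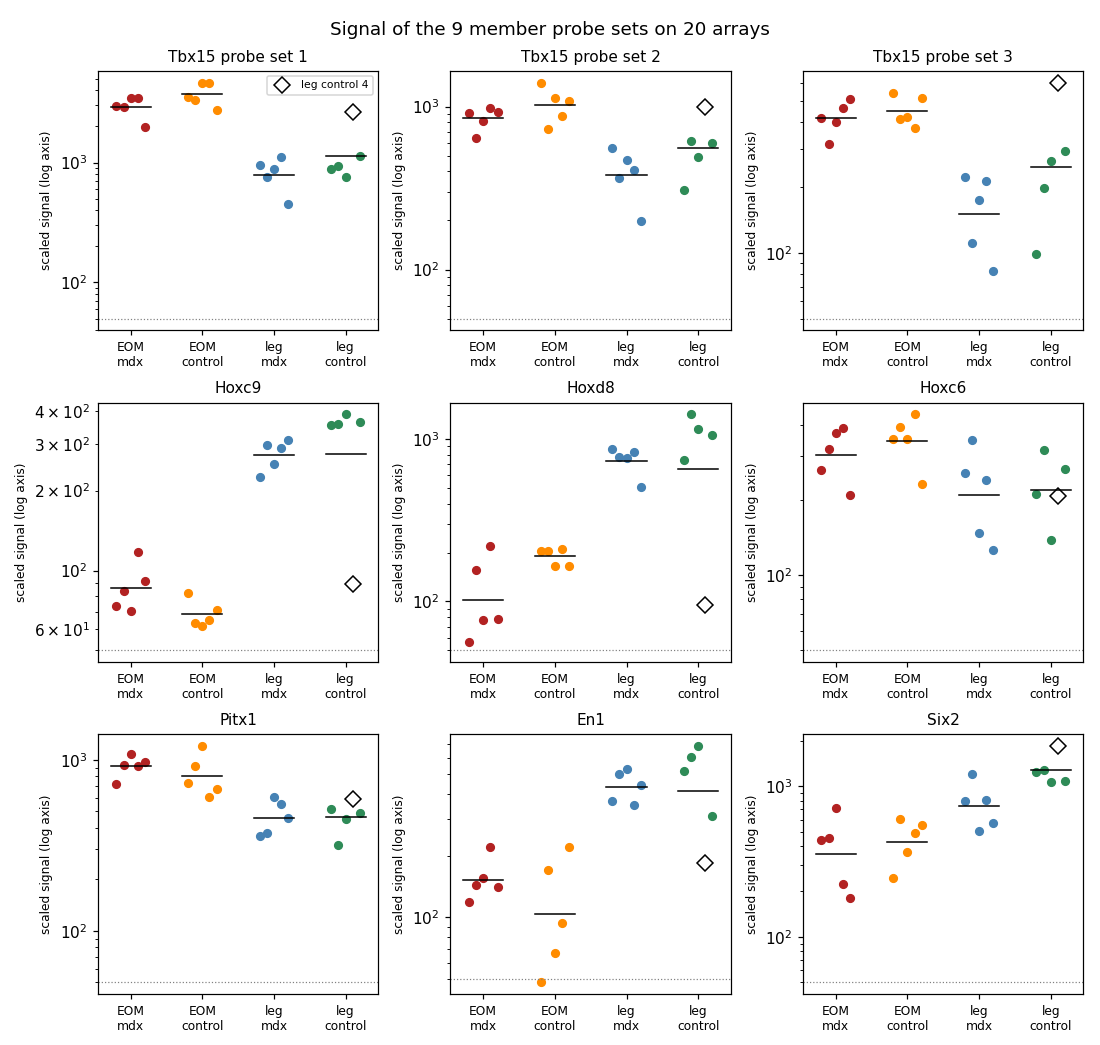
Scaled signal on a log axis for the 9 member probe sets on the 20 arrays, with EOM mdx, EOM control, leg mdx and leg control from left to right. Points are arrays, bars are the mean of the log2 values, the open diamond is leg control 4 and the dotted line is the floor of 50; Hoxc9 and Hoxd8 lie lower in EOM than on the leg arrays other than leg control 4, and Tbx15 probe set 1 lies higher.

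Hoxc9, a homeobox gene of the posterior trunk on chromosome 15, read 73.4, 83.5, 70.4, 117 and 91.5 on the EOM mdx arrays, against 225, 298, 252, 289 and 309 on the leg mdx arrays. Among control arrays Hoxc9 read 82.5, 63.6, 61.9, 64.9 and 71.0 in EOM, against 354, 355, 387, 88.8 and 361 in leg muscle. The muscles did not overlap in either genotype, although leg control 4 at 88.8 lay just above the highest EOM control. Hoxc9 was 3.18-fold lower in EOM of mdx mice (log2 difference -1.67, SE 0.34, limma adjusted p = 0.00108). In control mice it was 4.02-fold lower (log2 difference -2.01, SE 0.34, limma adjusted p = 0.000182). Without leg control 4 the control difference was -2.41 (limma adjusted p = 4.80e-07). Its probe set carries the suffix that the maker gives to sequences shared within a gene family, so signal from related Hox transcripts cannot be told apart from its own.

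Hoxd8, a homeobox gene of the trunk that lies between Hoxd9 and Hoxd3 on chromosome 2, read 56.1, 157, 76.5, 218 and 78.1 on the EOM mdx arrays, against 868, 771, 762, 830 and 504 on the leg mdx arrays. On the EOM control arrays it read 206, 205, 166, 212 and 166, against 737, 1416, 1144, 94.9 and 1056 on the leg controls. All mdx leg arrays lay above all mdx EOM arrays, and in control mice the groups overlapped only through leg control 4, which lay below every EOM control. Hoxd8 was 7.14-fold lower in EOM of mdx mice (log2 difference -2.84, SE 0.51, limma adjusted p = 0.000347), the largest muscle difference among the members. In control mice it was 3.45-fold lower (log2 difference -1.79, SE 0.51, limma adjusted p = 0.0176). With leg control 4 left out it was 5.59-fold lower (log2 difference -2.48, limma adjusted p = 6.54e-06). The control call ended in the fit without leg control 2, where the difference was -1.51 (limma adjusted p = 0.0574).

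Hoxc6, a homeobox gene that is used at forelimb and thoracic levels and lies beside Hoxc8 and Hoxc5, did not share this pattern. It read 264, 320, 372, 390 and 209 on the EOM mdx arrays, against 257, 349, 148, 241 and 126 on the leg mdx arrays. EOM controls read 349, 391, 352, 440 and 232, against 211, 317, 138, 207 and 267 on the leg controls. The muscles overlapped in both genotypes, with the EOM means the higher ones. The log2 difference was 0.53 in mdx mice (95% interval -0.05 to 1.12, limma adjusted p = 0.22) and 0.65 in control mice (0.07 to 1.24, limma adjusted p = 0.123). Leg control 4 lay inside its group for this gene, and without it the control difference was 0.63 (limma adjusted p = 0.176).

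The neighbours of these genes in the HoxC and HoxD clusters were read in the order of the chromosome. In the HoxC cluster Hoxc8, between Hoxc9 and Hoxc6, had log2 differences between the muscles of -0.14 in mdx and -0.48 in control mice. Hoxc5 had -0.13 in mdx and -0.71 in control mice, and Hoxc4 had -0.06 in mdx and -0.28 in control mice. None of these 3 was called in either genotype, and without leg control 4 the control differences were -0.47 for Hoxc8, -0.76 for Hoxc5 and -0.33 for Hoxc4, again not called. In the HoxD cluster Hoxd9, next to Hoxd8, had -0.49 in mdx mice and -1.0 in control mice (limma adjusted p = 0.17). It read 116.9, 83.3, 90.5, 115.9 and 98.3 on the EOM mdx arrays, against 303.6, 94.2, 191, 61.1 and 166.5 on the leg mdx arrays. EOM controls read 135, 264.5, 118, 226 and 58.0, against 299.9, 349.6, 406, 86.6 and 478 on the leg controls. Leg control 4 was again the lowest leg control, and without it Hoxd9 was called in control mice (log2 difference -1.42, limma adjusted p = 0.0266). Hoxd10 had -0.57 in mdx and -0.36 in control mice, or -0.30 without leg control 4, and was not called. Of the 17 Hox genes with a tested probe set, 14 were not members, and with all arrays none of the 14 was called in any of the 5 comparisons.

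**Figure D3:**
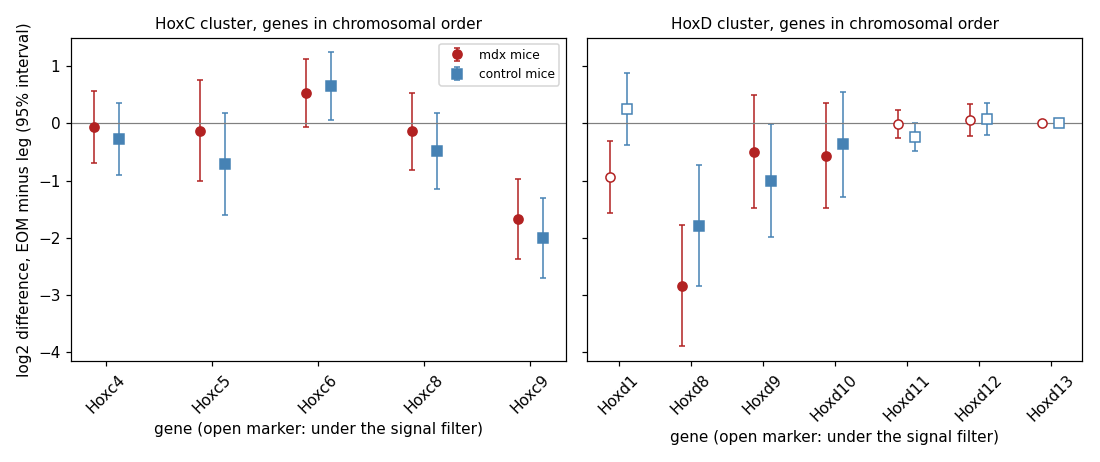
Log2 difference between EOM and leg muscle, with its 95% interval, for genes of the HoxC and HoxD clusters in chromosomal order, in mdx mice (circles) and control mice (squares). Open markers did not reach the signal filter; Hoxc9 and Hoxd8 lie below 0 in both genotypes, and Hoxc8 next to Hoxc9 is at -0.14 in mdx and -0.48 in control mice.

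Among the other homeobox members, En1, the engrailed gene on chromosome 1, read 119, 144, 155, 221 and 140 on the EOM mdx arrays, against 367, 500, 529, 352 and 439 on the leg mdx arrays. On the EOM control arrays it read 48.2, 170, 67.3, 94.0 and 220.3, against 518, 604, 682, 183 and 312 on the leg controls. The mdx groups did not overlap, and the control groups overlapped through leg control 4 and EOM control 5. En1 was 2.84-fold lower in EOM of mdx mice (log2 difference -1.50, SE 0.37, limma adjusted p = 0.00624). In control mice the log2 difference was -2.0, with 1 EOM array, at 48.2, raised to the floor of 50 (SE 0.37, limma adjusted p = 0.000557). Without leg control 4 the control difference was -2.30 (limma adjusted p = 9.07e-05).

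Six2, a homeobox gene beside Six3 on chromosome 17, read 437, 455, 713, 225 and 181 on the EOM mdx arrays, against 792, 1212, 503, 812 and 573 on the leg mdx arrays. EOM controls read 245, 604, 363, 487 and 552, against 1242, 1271, 1070.3, 1839 and 1089 on the leg controls. In control mice every leg array lay above every EOM array, and leg control 4 was the highest of all; in mdx mice the 2 muscles overlapped through EOM mdx 3. Six2 was 2.08-fold lower in EOM of mdx mice (log2 difference -1.06, SE 0.32, limma adjusted p = 0.0239). In control mice it was 2.98-fold lower (log2 difference -1.57, SE 0.32, limma adjusted p = 0.0013), and without leg control 4 the difference was -1.44 (limma adjusted p = 0.00477). The mdx call ended in each of the fits without EOM mdx 4, EOM mdx 5, leg mdx 2 or leg mdx 4, with a limma adjusted p of up to 0.0766 (log2 difference -0.81, without EOM mdx 5).

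Pitx1, the paired-like homeobox gene of hindlimb identity on chromosome 13, was higher in EOM in both genotypes. It read 722, 928, 1075, 923 and 973 on the EOM mdx arrays, against 360, 373, 603, 552 and 456 on the leg mdx arrays. On the EOM control arrays it read 734, 914, 1201, 609 and 678, against 516, 319, 449.7, 589 and 487 on the leg controls. No leg array reached the lowest EOM array of its genotype, and the nearest pair was leg control 4 and EOM control 4. The difference was 2.00-fold in mdx mice (log2 difference 1.00, SE 0.20, limma adjusted p = 0.000942). In control mice it was 1.73-fold (log2 difference 0.79, SE 0.20, limma adjusted p = 0.0071), and without leg control 4 it was 0.88 on the log2 scale (limma adjusted p = 0.00504). Pitx1 was thus higher in eye muscle, while Hoxc9 and Hoxd8 were lower there, and what sets them apart was not tested.

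Tbx15, a T-box gene on chromosome 3, was also higher in EOM, and its 3 probe sets can be read against each other. The brightest, probe set 1, read 2984, 2903, 3469, 3425 and 1978 on the EOM mdx arrays, against 949, 751, 884, 1112 and 447 on the leg mdx arrays. On the EOM control arrays it read 3510.1, 3351, 4644, 4623 and 2726, against 876, 936, 758, 2629 and 1135 on the leg controls. The groups did not overlap, although leg control 4 lay just below the lowest EOM control. The difference was 3.65-fold in mdx mice (log2 difference 1.87, SE 0.28, limma adjusted p = 4.15e-05). In control mice it was 3.26-fold (log2 difference 1.71, SE 0.28, limma adjusted p = 0.000133), and without leg control 4 it was 4.03-fold (log2 difference 2.01, limma adjusted p = 1.82e-06).

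Tbx15 probe sets 2 and 3 come from a different sequence record than probe set 1 and gave smaller differences of the same sign. Probe set 2 averaged 854 ± 130 in EOM mdx and 400.0 ± 134 in leg mdx arrays, and 1045 ± 258 in EOM control and 598 ± 249 in leg control arrays (SD, n = 5 each). Its log2 difference was 1.16 in mdx mice (limma adjusted p = 0.00378) and 0.87 in control mice (limma adjusted p = 0.0283). The control call for probe set 2 ended in the fits without EOM control 1, 3 or 5 and without leg control 1 or 3, with a limma adjusted p of up to 0.0865 (log2 difference 0.66, without leg control 1). Probe set 3 averaged 421 ± 72.0 in EOM mdx and 161 ± 62.3 in leg mdx arrays, and 451 ± 70.2 in EOM control and 292 ± 190.2 in leg control arrays (SD, n = 5 each). Its log2 difference was 1.47 in mdx mice (limma adjusted p = 0.00432) and 0.85 in control mice, which did not pass (limma adjusted p = 0.0973). On leg control 4 these probe sets read 987 and 605, the highest leg values of both, and without that array both were called in control mice (log2 differences 1.08 and 1.18, limma adjusted p = 0.00612 and 0.0116). Over the 20 arrays, which share muscle and genotype groups, r was 0.874 for probe sets 1 and 2, 0.848 for 1 and 3 and 0.946 for 2 and 3. As deviations from each group's mean, r was 0.636, 0.625 and 0.876 in that order. Probe sets 2 and 3 come from the same sequence record, so their likeness is not independent.

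**Figure D4:**
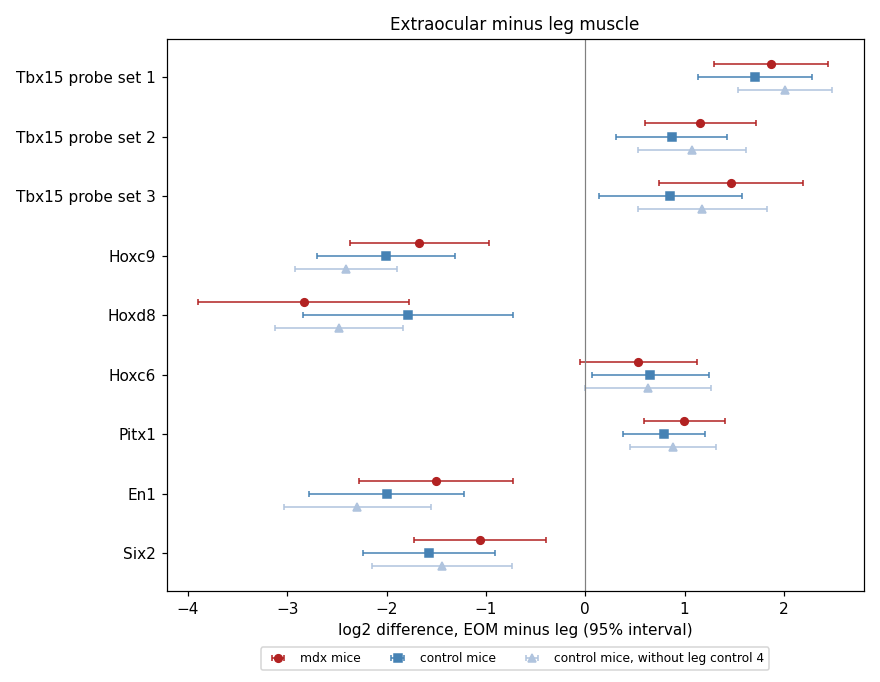
Log2 difference between EOM and leg muscle, with its 95% interval, for the 9 member probe sets in mdx mice (circles), control mice (squares) and control mice without leg control 4 (triangles). Values right of 0 are higher in EOM; Tbx15 and Pitx1 lie right of 0 and Hoxc9, Hoxd8, En1 and Six2 left of it, and Hoxd8 in control mice is at -1.79 with all arrays and at -2.48 without leg control 4.

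Other genes of limb and head position were mostly not called between the muscles. Of 40 such genes that were tested and are not members, 2 were higher and 0 lower in EOM of mdx mice, and 4 were higher and 0 lower in EOM of control mice. Over all probe sets, 9.24% were higher and 8.83% lower in EOM of mdx mice. In EOM of control mice 10.3% were higher and 7.41% lower. The median log2 difference of the 40 genes was 0.08 in mdx and 0.0021 in control mice. Eya2, a cofactor of Six2 and its relatives, read 703.5, 758, 679, 519 and 635.5 on the EOM mdx arrays, against 76.3, 286, 344.5, 172 and 440.1 on the leg mdx arrays. EOM controls read 546, 747, 746, 714 and 314, against 82.0, 105.9, 296, 369.9 and 176 on the leg controls. All but 1 EOM array lay above every leg array, so Eya2 was higher where Six2 was lower. Its log2 difference was 1.54 in mdx mice (limma adjusted p = 0.012) and 1.73 in control mice (limma adjusted p = 0.00553), and 2.00 in control mice without leg control 4 (limma adjusted p = 0.0019).

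Sox10, a transcription factor of neural crest and Schwann cells, had a log2 difference of 0.56 in mdx mice (limma adjusted p = 0.00458) and 0.41 in control mice (limma adjusted p = 0.0364). Without leg control 4 the control difference of Sox10 was 0.37 and no longer passed (limma adjusted p = 0.082). Twist1, a mesenchymal factor of limb and skull, had a log2 difference of 0.56 in mdx mice (limma adjusted p = 0.341) and was higher in EOM of control mice (1.30, limma adjusted p = 0.0174), where 1 leg array was raised to the floor. The control difference of Twist1 was 1.13 without leg control 4 (limma adjusted p = 0.0459). Prrx2, a homeobox gene of limb and face mesenchyme, had a log2 difference of -0.89 in mdx mice (limma adjusted p = 0.0944) and was higher in EOM of control mice (1.03, limma adjusted p = 0.0492, and 1.19 with limma adjusted p = 0.0313 without leg control 4).

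Markers of other cell types differed between the muscles as well, and their part in the results above was not tested. The 4 nerve and Schwann cell genes on the platform summed to between 6284 and 7367 in EOM mdx and between 1560 and 2681 in leg mdx arrays, and to between 6411 and 8778 in EOM control and between 1474 and 2769 in leg control arrays, and 2 of the 3 tested were higher in EOM in each genotype. The 5 salivary and lacrimal gland genes summed to between 3353 and 5716 in EOM mdx and between 393 and 658 in leg mdx arrays, and to between 4046 and 5220 in EOM control and between 359 and 10361 in leg control arrays, with leg control 4 the highest. Most of the EOM sums was Bpifa2, which averaged 3833.5 in EOM mdx and 4234.6 in EOM control arrays. Only 2 of the 5 were tested, of which 2 were higher in EOM of mdx mice and 1 in EOM of control mice. The 10 connective tissue fibroblast genes summed to between 29049 and 40825 in EOM mdx and between 42178 and 46788 in leg mdx arrays, and to between 25278 and 44293 in EOM control and between 24033 and 29646 in leg control arrays. Of these 10, 0 were higher and 1 lower in EOM of mdx mice, and 5 were higher and 0 lower in EOM of control mice. The 12 macrophage genes summed to between 7663 and 14654 in EOM mdx and between 40283 and 51929 in leg mdx arrays, and 12 of 12 were lower in EOM of mdx mice; in control mice 3 were higher in EOM. The summed signal of 9 genes of satellite cells, the stem cells of muscle, overlapped between the muscles in both genotypes. Of the 7 tested, Myf5 was higher (1.01, limma adjusted p = 0.0283) and Myod1 lower in EOM of mdx mice (-0.50, limma adjusted p = 0.00868). Itga7 was higher in EOM of control mice (0.65, limma adjusted p = 0.00858, and 0.50 with limma adjusted p = 0.0241 without leg control 4). The 14 keratinocyte genes summed to between 3584 and 7728 in EOM mdx and between 2728 and 3461 in leg mdx arrays, without overlap, and 2 of the 6 tested, Krt6a and Sfn, were higher in EOM. In control mice they summed to between 3078 and 3700 in EOM and between 2703 and 6680 in leg muscle, with leg control 4 the highest, and 0 of the 6 were called. Of the 4 tested genes of developmental and extraocular muscle isoforms, 1 was higher and 1 lower in EOM of mdx mice and 1 was higher in EOM of control mice; Myh13, the extraocular myosin, was not analysed here.

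Between genotypes none of the members was called. In leg muscle 0 of the 7 genes passed, where 17.9% of all probe sets did, and 1 had an unadjusted p under 0.05. That gene was Six2, which read 792, 1212, 503, 812 and 573 on the leg mdx arrays and 1242, 1271, 1070.3, 1839 and 1089 on the leg controls, with a single mdx array above the lowest control. Its log2 difference was -0.78 (95% interval -1.45 to -0.12, limma adjusted p = 0.0996), and -0.65 without leg control 4 (limma adjusted p = 0.213). The brightest Tbx15 probe set had -0.51 (95% interval -1.09 to 0.06, limma adjusted p = 0.231), and the other Tbx15 probe sets -0.56 and -0.72. Without leg control 4, probe set 1 was at -0.21 (limma adjusted p = 0.593). The same fit put probe set 2 at -0.35 (limma adjusted p = 0.401) and probe set 3 at -0.40 (limma adjusted p = 0.441). In the fit without leg control 1, Tbx15 probe sets 2 and 3 were called (log2 differences -0.77 and -1.05, limma adjusted p = 0.043 and 0.0207). Hoxc9 had -0.01, Pitx1 had -0.01, Hoxc6 had -0.07, En1 had 0.06 and Hoxd8 had 0.17.

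Leaving out leg control 4 turned the sign of the Hoxd8, En1 and Pitx1 differences in leg muscle, none of which was called either way. Without it Hoxd8 was at -0.53 (95% interval -1.17 to 0.12, limma adjusted p = 0.277), En1 at -0.23 and Pitx1 at 0.07. Hoxc6 kept its sign, at -0.09. Hoxc9 moved to -0.42 (95% interval -0.93 to 0.10, limma adjusted p = 0.284), and then its 5 leg mdx arrays, at 225 to 309, all lay below the other 4 leg controls, at 354 to 387. With that array left out 16.5% of all probe sets were called between leg mdx and leg control arrays and 16.4% did not overlap. With all arrays, 12 of the 12 macrophage genes were higher in leg mdx arrays. They summed to between 40283 and 51929, against 4409 to 6301 in leg controls. Of the 10 fibroblast genes 8 were higher, and the part of these genes in the values above was not tested.

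In extraocular muscle 0 of the 7 genes passed between mdx and control mice, where 0.0833% of all probe sets did, and 0 had an unadjusted p under 0.05 with all arrays. Over all probe sets 6 were called by limma and 369 had an unadjusted p under 0.05. The widest interval with all arrays was that of Hoxd8, whose log2 difference was -0.88 (95% interval -1.94 to 0.18, limma adjusted p = 0.999), with 3 EOM mdx arrays at 56.1 to 78.1 and the other two at 157 and 218, against 166 to 212 on the EOM controls. In the fit without leg control 4, in which all groups still share 1 estimate of spread, its interval was -1.49 to -0.28, with an unadjusted limma p of 0.00648 and an adjusted p of 0.786, the 1 member then under 0.05 unadjusted. En1 had 0.56, Hoxc9 had 0.33, Pitx1 had 0.19, Hoxc6 had -0.19, Six2 had -0.27 and Tbx15 probe set 1 had -0.35. The all-array intervals still hold differences of up to 1.94 on the log2 scale in size, so they do not show that the genotypes were alike.

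**Figure D5:**
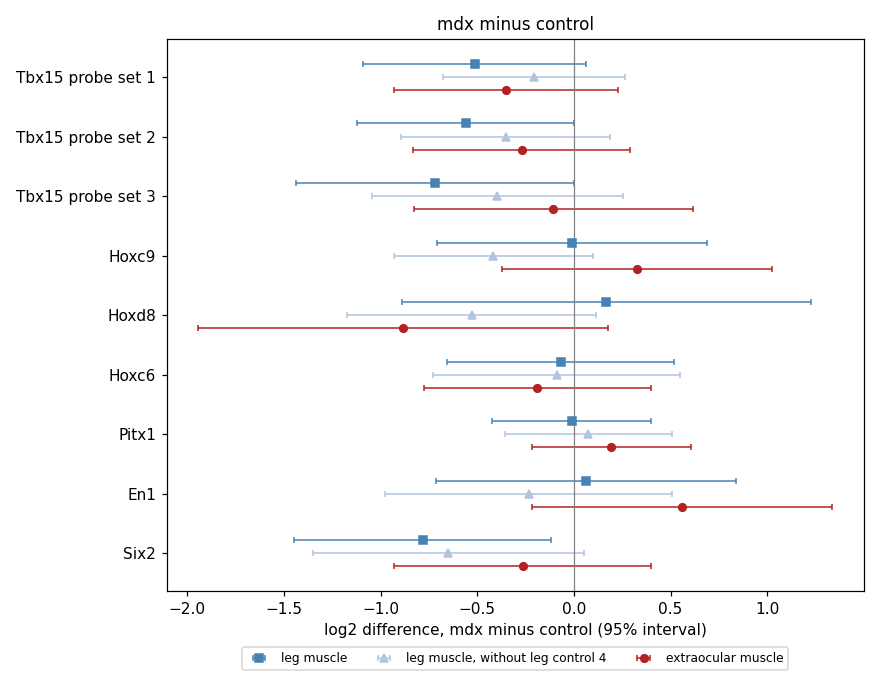
Log2 difference between mdx and control mice, with its 95% interval, for the 9 member probe sets in leg muscle with all arrays (squares) and without leg control 4 (triangles), and in extraocular muscle (circles). Hoxd8 in leg muscle is at 0.17 with all arrays and at -0.53 without leg control 4, and none of the values shown was called.

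The difference of the mdx effect between the muscles, leg minus EOM, was called for 0 of the 7 genes, against 6.22% of all probe sets. It was 1.05 on the log2 scale for Hoxd8 (95% interval -0.45 to 2.55, limma adjusted p = 0.489) and 0.35 without leg control 4. The other members lay between -0.52 for Six2 and 0.12 for Hoxc6, with Tbx15 by its brightest probe set. Hoxc9 was at -0.34 with all arrays and at -0.74 without leg control 4 (limma adjusted p = 0.247). The same step took En1 to -0.79 without that array, against -0.50 with it, and the brightest Tbx15 probe set to 0.14, against -0.16. Six2 was then at -0.39, Pitx1 at -0.12 and Hoxc6 at 0.10, and none was called. Among the 40 other position genes, 1 was called here: Prrx2, at 1.92 (limma adjusted p = 0.0259). Prrx2 read 432, 351, 476, 293 and 409 on the leg mdx arrays, against 74.1, 154, 143, 198 and 106.6 on the leg controls. In EOM it read 221, 193, 353, 240.5 and 110.7 on the mdx arrays, against 201.5, 410.1, 345, 406 and 106.7 on the controls. All leg mdx arrays lay above all leg controls, while the EOM groups overlapped (leg log2 difference 1.59, limma adjusted p = 0.00289). Leaving out leg control 4 gave Prrx2 1.75 in leg muscle (limma adjusted p = 0.00213) and 2.08 for the difference of effects (limma adjusted p = 0.0167). Six4, a relative of Six2, was lower in leg mdx arrays (-0.77, limma adjusted p = 0.0145, and -0.71 with limma adjusted p = 0.0374 without leg control 4). Prrx2 and Six4 were the only 2 of the 40 called between genotypes in leg muscle with all arrays, where 17.9% of all probe sets were called. There were 3 without leg control 4, with Hoxd9 also lower in leg mdx arrays (-1.42, limma adjusted p = 0.0272).

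The genes whose log2 signal was most like that of each member over the 20 arrays were taken as the 3 with the highest Pearson r. These 20 arrays fall into 4 groups, so an r over all of them can reflect the groups, and it is a description with no test. For Hoxc9 they were Pdlim3 (r = 0.923), Park7 (0.921) and Myom2 (0.914), a protein of the sarcomere's M-band. Hoxd8 was most like Padi2 (r = 0.896), Park7 (0.863) and Reep1 (0.863), and En1 most like Psmd8 (0.881), H2ax (0.863) and Dnase1l1 (0.859). Six2 was most like Vapa (r = 0.912), Cops3 (0.903) and Jtb (0.893). Tbx15 was most like Akap1 (r = 0.928), Lamb2 (0.922) and G3bp2 (0.918), and Pitx1 most like Lpgat1 (0.895), Anp32a (0.881) and Jam3 (0.872). Hoxc6, which did not part the muscles, reached 0.765 with Cacna2d1, 0.756 with Etl4 and 0.753 with Atxn2. Within groups, as deviations from each group's mean, r for these 21 pairs was lower, between 0.366 for Hoxc9 with Myom2 and 0.749 for Hoxc6 with Cacna2d1.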

How the data were processed

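Total RNA of 20 arrays, 5 in each of 4 groups by title, was analysed as 1 intensity per probe set. The authors deposited linear intensities in a value table; per the labels a standard Affymetrix protocol was used for mdx arrays, and the summarising software and genome build are not given in the sources used here. The deposited intensities ran from 0.4 to 95476.8 and no 2 arrays were identical. Each array was scaled to a 2% trimmed mean of 500 over its 12588 non-control probe sets. For log2 values a floor of 50 was then applied, while signals are printed without it. The platform annotation gave several symbols for 363 probe sets and listed none for 1993, left unnamed.

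With R 4.3.3, limma 3.58.1 fitted lmFit and eBayes with an intensity trend to all 20 arrays in 4 groups (16 residual degrees of freedom), over the 7204 probe sets with 200 or more on 5 or more arrays. P-values of each of the 5 contrasts were adjusted by Benjamini-Hochberg, with a threshold of 0.05. Where a group had an array under the floor, the log2 difference depends on it and no fold is given. The fit was also run on simulated data with independent normal noise and equal spread in all groups. That simulation held no array like leg control 4, so it cannot show how the fit handles such an array. Promoter windows and figures used Python 3.11.15 with pandas 2.3.3 and matplotlib 3.10.9.

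The members and gene lists were chosen with earlier results of these data known. Named besides the members were up to 4 tested genes per position list and contrast with the smallest adjusted p that the text describes, the 3 genes most like each member, Dmd, and neighbours in the HoxC and HoxD clusters, which were added after their values were seen; a gene was read by its brightest tested probe set. Replicate numbers recur across groups, but the labels tie them to no animal, so same-numbered arrays were not treated as pairs. Such arrays correlated by -0.084 to 0.228 in their deviations from the group means, over 0.1 for 4 of 30 pairs. Of the 20 arrays, however, 10 correlated best with their own number, and what the numbers share was not tested. Every count was recomputed with unscaled values, quantile normalization, a floor of 20 or 100, a pseudocount of 50 in place of the floor, a filter of 500 or none, eBayes without the trend, weighted arrays, a fit to only the groups compared, the replicate number as a block, and each array left out.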

Additional observations from a re-analysis of the deposited data

Results flagged for a closer look

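A group of 5 arrays was checked for 1 array far from the rest by the gap from the extreme array to its nearest neighbour, as a share of the group's range on the log2 scale, against a critical value of 0.71. Of 36 groups of a member probe set 3 passed it, and chance alone passes about 1 in 20 groups. For Hoxc9 leg control 4 lay far below the other leg controls, with a gap of 0.94 of the range. For Hoxd8 leg control 4 was again far below the others, with a gap of 0.758. The third was Hoxd8 on leg mdx 5, at a signal of 504 against 762 to 868 on the other leg mdx arrays, with a gap of 0.76.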

How the results depend on the processing

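No member difference reversed its sign among those called. The count of called members was 6 of 7 genes between EOM and leg in each genotype. It ran from 5 to 6 over the fits that each left out 1 array and from 5 to 6 over the other alternatives. With the filter of 500 only 5 genes were tested, and all 5 were called in each genotype. These counts read Tbx15 by its brightest probe set. Its probe sets 2 and 3 did pass between leg mdx and leg control arrays in the fit without leg control 1. The count was 0 in the genotype comparisons and their difference in every fit that left out 1 array. It was 1 between leg mdx and leg control arrays with only the groups compared, where Six2 passed (limma adjusted p = 0.036), and 0 otherwise; that setting gives no value for the difference of effects. Hoxd8 in control mice lost its call with no filter (limma adjusted p = 0.0562) and with only the groups compared (0.0547), Six2 in mdx mice with no filter (0.0663), and Tbx15 probe set 2 in control mice with no filter (0.0714). With the replicate number as a block the counts were 6, 6, 0, 0 and 0 in the order EOM against leg in control mice, the same in mdx mice, leg genotypes, EOM genotypes and their difference, and the block changed no count of members. Over all probe sets the EOM genotype comparison called 6, and 3 to 11 over the fits without 1 array and over the other alternatives alike; no other such count moved by more than 1.5 times. A fit without leg control 1 and 4 together, chosen after seeing the data, put Hoxd8 between leg mdx and leg control arrays at -0.70 (limma adjusted p = 0.179). A filter of 500 left Hoxc9, Hoxc6 and Tbx15 probe set 3 untested. Probe sets near the floor of 50, such as En1 and Hoxc9 in EOM and Hoxd8 on some EOM mdx arrays, limit how large a fold can be read.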

Other observations

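Leg control 4 also parted from its group in genes that are no members. Myl2, a slow-fibre myosin light chain, read 45.2 on it, 8608 to 20215 on the other leg controls and 6668 to 9786 on the EOM controls. The 14 keratinocyte genes summed to 6680 on leg control 4 and to between 2703 and 4029 on the other leg controls. On the EOM controls they summed to between 3078 and 3700. The fit that weights arrays gave leg control 4 a weight of 0.859, and the lowest weight, 0.344, went to leg control 1.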
